A study of Bos taurus with 12 samples.

Results

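Antigen presentation was followed through 10 genes: B2M, BOLA, TAP1 and TAPBP of the major histocompatibility complex (MHC) class I pathway, and BOLA-DRA, BOLA-DQB, BOLA-DMA, BOLA-DMB, CD74 and CIITA of the class II pathway. A probe set was taken when the array annotation gave it only 1 gene symbol and that symbol was one of these. The rule found 10 probe sets for 8 genes, 4 of class I and 4 of class II, among 9155 genes named in this way. CD74 and CIITA had no probe set of that kind and were not analysed here. All 10 passed the filter for a measured gene, a log2 value above 4 on 3 or more arrays.

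Endometrial biopsies of Simmental heifers had been taken one cycle before embryo transfer and hybridised to Affymetrix bovine arrays. CDd14 and CDd7 are the biopsies of day 14 and day 7 of the cycle from heifers that later carried a transferred embryo to calf delivery (CD). NPd14 and NPd7 are those of the same days from heifers with no pregnancy after the transfer, which came back into heat (NP). All 12 samples were thus pre-transfer tissue, and the transferred embryo had not been in the uterus. Each group has 3 arrays, each of RNA from a pool of biopsies. How many heifers a pool holds is not given, nor whether the same animals are in the pools of day 14 and day 7, so p-values measure the spread between these pools. One CDd14 title gives 2 different numbers, and its replicate number was used.

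MHC class I molecules consist of a polymorphic heavy chain and beta-2-microglobulin, and present peptides from inside nearly every nucleated cell. The TAP transporter carries these peptides into the endoplasmic reticulum, where tapasin holds the empty class I molecule close to it. Class II molecules are pairs of an alpha and a beta chain on antigen-presenting cells such as macrophages, dendritic cells and B cells, and can be induced on other cells by interferon gamma. The DM pair exchanges the placeholder peptide of CD74, the invariant chain, for antigenic peptide, and CIITA is the master activator of class II transcription. In cattle the complex is called BoLA, its heavy chain and DQ genes vary between animals, and the number of DQ genes differs between haplotypes. In the ARS-UCD2.0 annotation, TAP1, BOLA-DMB, BOLA-DMA, TAPBP, BOLA-DQB and BOLA-DRA lie on 1 chromosome in that order, with no other protein-coding gene between BOLA-DMB and BOLA-DMA. B2M lies on another chromosome.

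The arrays had medians of 4.89 to 5.06 on the log2 scale, and the mean correlation of an array with the others of its group was 0.941 to 0.982. The difference between 3′ and 5′ control probe sets, which grows as RNA is shortened, was 1.84 to 2.05 in CDd14, 2.12 to 2.42 in NPd14, 1.42 to 1.79 in CDd7 and 1.73 to 2.11 in NPd7. It moved with day and outcome, and its part in the results was not tested. Of 9 epithelial markers, 8 were measured, with a mean level of 11.16 to 11.86, and KRT8 reached only 1.705.

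In the limma fit over 13449 probe sets, with Benjamini-Hochberg adjustment over all of them, 1 member probe set passed an adjusted p of 0.05 in 1 comparison. BOLA-DMB rose 2.34-fold in CDd14 against CDd7. In that comparison 24% of all probe sets passed, so 1 of 10 is a share below that of all probe sets. In biopsies, more cells of a type and more RNA per cell cannot be told apart. None of the 10 passed in CDd14 against NPd14 (0.0223% of all probe sets passed), in CDd7 against NPd7 (3.74%) or in NPd14 against NPd7 (0.327%). At an unadjusted p under 0.05, limma gave 1 of the 10 in CDd14 against NPd14 (BOLA-DQB; 7.38% of all probe sets), 1 in CDd7 against NPd7 (TAP1; 30%) and 1 in NPd14 against NPd7 (TAPBP; 16.3%). In CDd14 against CDd7 it gave 2, BOLA-DMB and TAPBP (39.3%). The test of whether day 14 minus day 7 differed by outcome passed for 0 of the 10 and for 0% of all probe sets, with 0 of the 10 and 14.1% of all at an unadjusted p under 0.05 in limma. CD minus NP averaged over both days, a contrast chosen after seeing the data, passed for 0 of the 10 (1.15% of all probe sets). BOLA-DQB passed the filter only through NP arrays, so its place in the count of CDd14 against NPd14 supports nothing. The comparisons share groups of arrays, so they are not independent of one another.

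**Figure D1:**
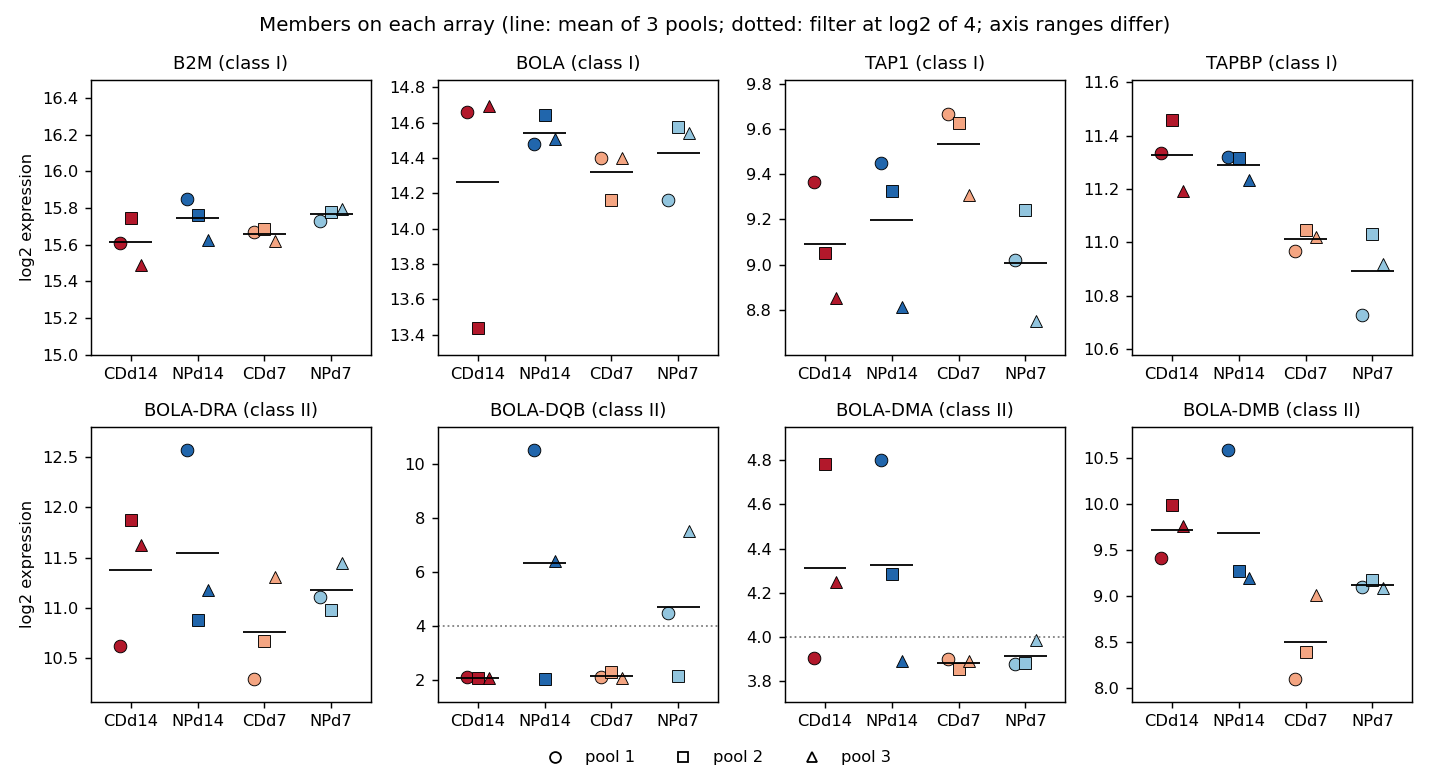
Log2 expression of the 8 measured members on each array, with 1 panel a gene, the 4 groups along the horizontal axis, pool numbers as symbols and the mean of the 3 pools as a line. B2M lies between 15.49 and 15.85 throughout, BOLA-DMB is highest on NPd14 pool 1 at 10.59, and BOLA-DQB is above the dotted filter line at 4 on 4 NP arrays only.

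B2M, the light chain of every class I molecule, lay near the top of the scale and was nearly constant. Its brightest probe set read 15.61, 15.74 and 15.49 in CDd14, and 15.85, 15.76 and 15.62 in NPd14. In CDd7 it read 15.67, 15.68 and 15.62, and in NPd7 15.73, 15.78 and 15.79. The groups overlapped on day 14, while on day 7 the 3 CDd7 arrays lay below the 3 NPd7 arrays, by a mean of only 0.11 (log2 difference -0.11 ± 0.11 SE, limma adjusted p = 0.500). The range over the 12 arrays was 0.36, and only 3.43% of the kept probe sets had a smaller one. The other 2 B2M probe sets had ranges of 0.15 and 0.14 and overlapping groups in every comparison. Values this close to the top of the table, which ends at 16.01, may respond less than the transcript does, which was not tested.

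BOLA is the annotation's symbol for a class I heavy chain. Its probe set read 14.66, 13.44 and 14.69 in CDd14, and 14.48, 14.64 and 14.51 in NPd14. It read 14.40, 14.16 and 14.40 in CDd7, and 14.16, 14.58 and 14.54 in NPd7. CDd14 pool 2 stood apart as the lowest of the 12, and the other 11 arrays lay within 14.16 to 14.69. The mean difference between CDd14 and NPd14 was -0.28 ± 0.29 (SE, limma adjusted p = 0.899), and without CDd14 pool 2 it was 0.13. The probe set is of a type that can read several near-identical transcripts, so the level may be shared between heavy chain genes. The symbol did not match a gene of the annotation in use here, whereas the other 7 members matched by gene identifier.

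TAP1, one subunit of the peptide transporter, had its highest mean in CDd7. It read 9.36, 9.05 and 8.85 in CDd14, against 9.45, 9.33 and 8.81 in NPd14. The CDd7 pools read 9.67, 9.63 and 9.31, against 9.02, 9.24 and 8.75 in NPd7, and these 2 groups did not overlap. The mean log2 difference of CDd7 minus NPd7 was 0.53 ± 0.21 (SE; 95% interval 0.065 to 0.99), a fold of 1.44, with an unadjusted p of 0.0294 and an adjusted p of 0.128 in limma. Between CDd14 and CDd7 the log2 difference was -0.45 ± 0.21 (SE, limma adjusted p = 0.142), with overlapping values. CDd14 minus CDd7 less NPd14 minus NPd7 came to -0.64 ± 0.30 (SE), with an adjusted p of 0.359 in limma. With the pool number as a block, both the day 7 difference (adjusted p = 0.0399) and the CD day difference (adjusted p = 0.0339) passed in limma. This block also ties CD and NP pools of the same number, which hold different heifers, so the day 7 value supports nothing. The CD pools were not taken as pairs, however, and whether the NP pools are pairs is not settled.

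TAPBP, which encodes tapasin, was higher on day 14 in both outcomes, without overlap between the days. It read 11.33, 11.46 and 11.19 in CDd14, against 10.97, 11.05 and 11.02 in CDd7. In NP heifers it read 11.32, 11.31 and 11.23 in NPd14, against 10.73, 11.03 and 10.92 in NPd7. The log2 differences were 0.32 ± 0.11 in CD (SE, 1.25-fold, limma adjusted p = 0.0665) and 0.40 ± 0.11 in NP (SE, 1.32-fold, limma adjusted p = 0.161), and neither passed. Averaged over both outcomes, a contrast chosen after seeing the data, TAPBP rose 1.28-fold with a log2 difference of 0.36 ± 0.08 (SE, limma adjusted p = 0.0117). In that averaged contrast 25.2% of all probe sets passed.

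The 4 class I members had a median log2 difference of -0.119 in CDd14 minus NPd14, 0.00593 in CDd7 minus NPd7, -0.0508 in CDd14 minus CDd7 and 0.153 in NPd14 minus NPd7. Over all 6781 measured genes the medians of the same comparisons were 0.0255, -0.0116, -0.0042 and -0.0644.

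BOLA-DMB, the beta chain of the peptide editor, was the member whose rise passed the test. It read 9.41, 9.997 and 9.76 in CDd14, against 8.10, 8.39 and 9.01 in CDd7. All 3 CDd14 arrays lay above all 3 CDd7 arrays, and the log2 difference was 1.22 ± 0.36 (SE; 95% interval 0.43 to 2.02; limma adjusted p = 0.0339). The call was lost without CDd14 pool 2 (adjusted p = 0.0986), CDd14 pool 3 (0.0890), CDd7 pool 1 (0.102), CDd7 pool 2 (0.105) or NPd7 pool 1 (0.0501), while the log2 difference stayed between 1.02 and 1.48 over all 12 omissions. In NP heifers BOLA-DMB read 10.59, 9.27 and 9.20 in NPd14, against 9.09, 9.18 and 9.09 in NPd7, and again the days did not overlap. That log2 difference was 0.56 ± 0.36 (SE, 1.48-fold, limma adjusted p = 0.464) and rested largely on NPd14 pool 1, since it was 0.11 without that array. The difference of the day effects was 0.66 ± 0.51 (SE, unadjusted p = 0.222 in limma). On day 7 the 3 CDd7 values lay below the 3 NPd7 values, with a log2 difference of -0.62 ± 0.36 (SE, limma adjusted p = 0.263).

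BOLA-DMA, its alpha chain partner, was close to the filter, above 4 on 4 of the 12 arrays. It read 3.90, 4.79 and 4.25 in CDd14, and 4.80, 4.29 and 3.89 in NPd14. In CDd7 it read 3.90, 3.86 and 3.89, and in NPd7 3.88, 3.88 and 3.99. The 4 arrays above 4 were thus all of day 14, with 2 in each outcome, and the CDd14 and CDd7 values did not overlap by a margin of less than 0.01. BOLA-DMA passed the filter only through day 14 arrays, so its log2 differences of 0.43 in CDd14 minus CDd7 and 0.41 in NPd14 minus NPd7 are given without a test.

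BOLA-DRA, the alpha chain of the DR class II molecule, was well above the filter on all 12 arrays. It read 10.62, 11.88 and 11.62 in CDd14, and 12.57, 10.88 and 11.18 in NPd14. Values in CDd7 were 10.30, 10.68 and 11.31, and in NPd7 11.11, 10.98 and 11.45. The groups overlapped in all 4 comparisons, and the widest spread between pools was that of NPd14, with an SD of 0.90. The log2 difference of CDd14 minus CDd7 was 0.61 ± 0.46 (SE; 95% interval -0.42 to 1.64; limma adjusted p = 0.351), and that of NPd14 minus NPd7 was 0.37 ± 0.46 (SE, limma adjusted p = 0.744).

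BOLA-DQB, a beta chain of the DQ class II molecule, was either at the bottom of the scale or clearly present. In CDd14 it read 2.11, 2.08 and 2.08, against 10.53, 2.06 and 6.41 in NPd14. The CDd7 arrays read 2.13, 2.32 and 2.07, against 4.50, 2.15 and 7.51 in NPd7. It was above 4 on 0 of 6 CD arrays and on 4 of 6 NP arrays, pools 1 and 3 on both days, while pool 2 of NP was as low as the CD arrays. The groups overlapped on both days through that pool. BOLA-DQB passed the filter only through NP arrays, and its CD values lay at the bottom of the scale. The differences of the group means, -4.24 in CDd14 minus NPd14 and -2.55 in CDd7 minus NPd7 on the log2 scale, are therefore a description, and the p-values the fit gave for it support nothing. Its SD between pools of a group was 2.51, larger than that of 99.9% of the kept probe sets.

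**Figure D2:**
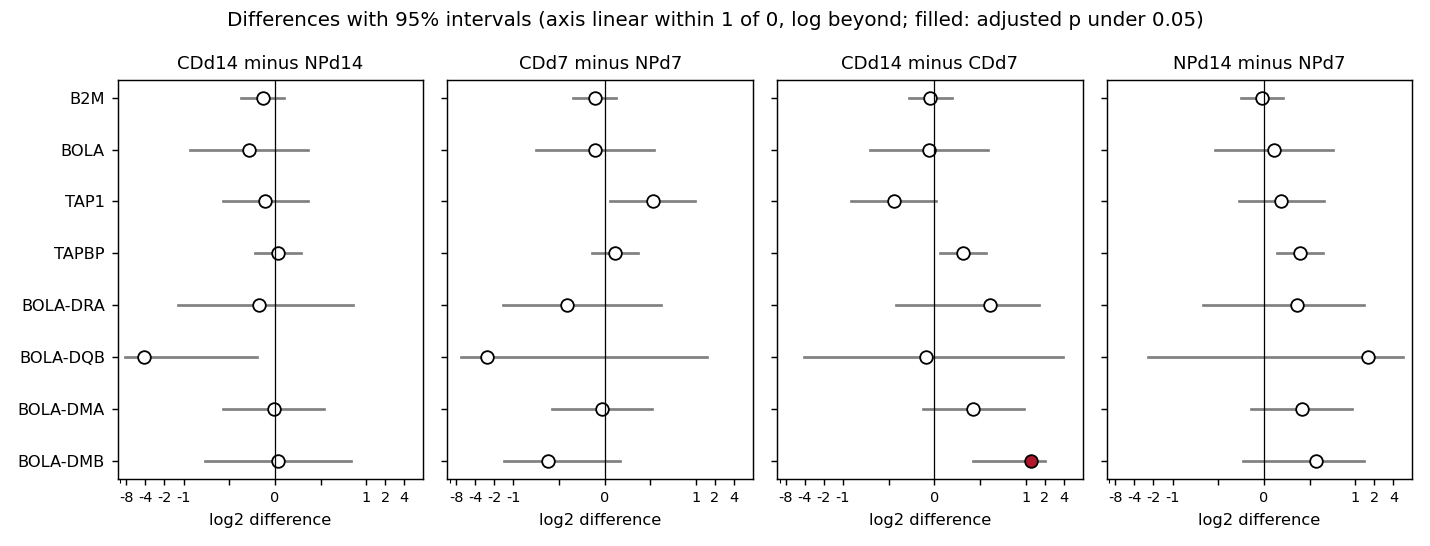
Log2 difference of each member (circle) with its 95% interval (line) in the 4 comparisons, on an axis that is linear within 1 of 0 and logarithmic beyond. The filled circle, BOLA-DMB in CDd14 minus CDd7 at 1.22, is the only one past an adjusted p of 0.05, and the intervals of BOLA-DQB are the widest. BOLA-DQB passed the filter only through NP arrays and BOLA-DMA only through day 14 arrays, so their intervals are shown as a description.

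The 4 class II members had a median log2 difference of -0.0927 in CDd14 minus NPd14 and -0.519 in CDd7 minus NPd7. It was 0.52 in CDd14 minus CDd7 and 0.489 in NPd14 minus NPd7. The 4 include BOLA-DMA and BOLA-DQB, which passed the filter only through day 14 or NP arrays, so these medians are a description. Of the 10 member probe sets, the 3 against 3 values did not overlap for 0 in CDd14 against NPd14 (11.4% of all probe sets), 3 in CDd7 against NPd7 (35%), 3 in CDd14 against CDd7 (44.8%) and 2 in NPd14 against NPd7 (21.6%). These shares are near or below those of all probe sets, and they include BOLA-DMA and BOLA-DQB.

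Some members correlated across arrays within and between the classes. After each group's mean was subtracted, BOLA-DRA correlated with BOLA-DMB at 0.923 and with BOLA-DMA at 0.766 over the 12 arrays. B2M correlated with BOLA-DMA at 0.774, with TAPBP at 0.693 and with BOLA at -0.58. These are descriptions without a test, and all values of an array share its RNA and hybridisation. All 4 class II members were highest on NPd14 pool 1. With the other class II probe sets, 15 of 17 were highest on that array, which holds the highest value of 4.84% of all kept probe sets. Several of the 17 read the same gene. BOLA-DQB and BOLA-DQA5 passed the filter only through NP arrays, and BOLA-DMA only through day 14 arrays. The count is therefore a description and supports nothing.

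BOLA-DQA5, the alpha chain gene next to BOLA-DQB in the annotation with no protein-coding gene between them, had the same pattern. It lay between 1.968 and 1.998 on all 6 CD arrays and on NP pool 2 of both days. In NPd14 pools 1 and 3 it read 10.54 and 7.81, and in NPd7 pools 1 and 3 it read 7.12 and 9.22. The same 4 NP arrays exceeded 4 in both genes, and the same 8 arrays lay at 2.321 or below. BOLA-DQA5 too passed the filter only through those NP arrays, and no test is given for it. No genotype of the heifers was used here.

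Other DQ probe sets varied between pools as well. Beyond the members, 13 of 17 class II probe sets were kept, and 9 of these spanned more than 4 log2 units over the 12 arrays (median range 5.274). One BOLA-DQB1 probe set, named after its values were seen, read 3.46, 4.48 and 10.10 in CDd14, against 8.77, 7.65 and 8.16 in NPd14. In CDd7 it read 3.41, 3.44 and 9.20, against 6.82, 6.31 and 9.32 in NPd7. It was high in CD pool 3 of both days, where BOLA-DQB and BOLA-DQA5 were at the bottom. BOLA-DRB3, the beta chain that pairs with BOLA-DRA, had ranges of 1.895 and 2.26 in its 2 probe sets. The less variable of them read 9.04, 9.84 and 10.06 in CDd14, against 8.90, 8.74 and 8.76 in CDd7 (log2 difference 0.84 ± 0.41 SE, limma adjusted p = 0.155). None of the 13 class II probe sets passed in any comparison by limma. At an unadjusted p under 0.05 in limma there were 1, 0, 0 and 0 in CDd14 against NPd14, CDd7 against NPd7, CDd14 against CDd7 and NPd14 against NPd7. The shares of all probe sets under it were 7.38%, 30%, 39.3% and 16.3%. The 1 was BOLA-DQA5, which passed the filter only through NP arrays, so its place in the count supports nothing.

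Class I heavy chain probe sets differed in how much they varied between arrays. Of 21 beyond BOLA, most of them annotated to several genes at once, 13 were kept, with a median range of 1.135 log2 units, 4 ranges under 1 and 2 over 4. The wider of these 2, named after its values were seen, read 10.94, 11.51 and 8.93 in CDd14, against 5.48, 6.83 and 9.94 in NPd14. On day 7 it read 11.33, 10.27 and 9.87 in CDd7, against 4.90, 8.66 and 9.06 in NPd7, with no overlap on day 7. Its log2 differences of 3.04 ± 1.31 on day 14 and 2.95 ± 1.31 on day 7 (SE) did not pass (limma adjusted p = 0.659 and 0.162). The other read 7.19, 7.83 and 5.86 in CDd14, against 1.99, 3.79 and 7.88 in NPd14. In CDd7 it read 6.96, 6.61 and 6.67, against 2.004, 2.76 and 6.30 in NPd7. Both probe sets carry the same annotation, BOLA-N and JSP.1, so they are not taken as independent of each other. They were lowest on NP pool 1 of both days, where BOLA-DQB was above 4. BOLA-DQB was above 4 on NP pool 3 of both days too, and there they were not low. On day 14 and day 7, NP pool 3 read 9.94 and 9.06 in the wider one, and 7.88 and 6.30 in the other. None of the 13 passed in any comparison by limma. In the same order, 2, 3, 0 and 0 had an unadjusted limma p under 0.05, against the same shares of all probe sets. Those counted went both ways. A BOLA-N probe set was lower in CD on day 7 (log2 difference -1.22 ± 0.46 SE, limma adjusted p = 0.115). One annotated to BOLA and BOLA-NC1 was lower on day 14 and day 7 (-0.88 ± 0.36 and -0.96 ± 0.36 SE, limma adjusted p = 0.628 and 0.117). Of the 13, 3 were positive in CDd14 minus NPd14 and 4 in CDd7 minus NPd7.

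**Figure D3:**
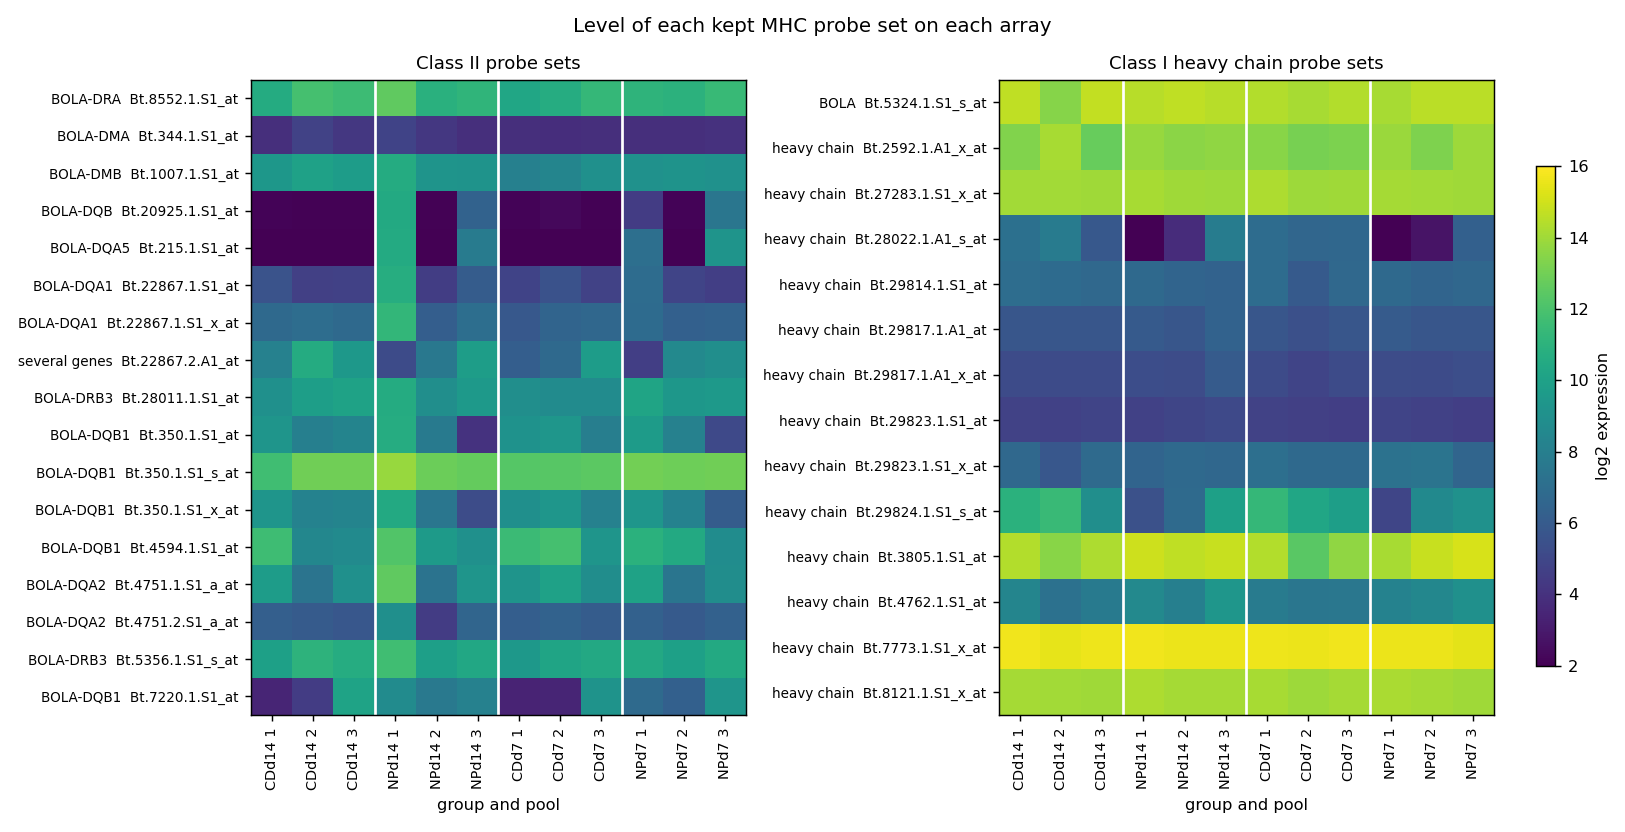
Log2 expression (colour) of each kept class II probe set (left) and class I heavy chain probe set (right), in rows, on the 12 arrays, in columns by group and pool. BOLA-DQB and BOLA-DQA5 change on the same 4 NP columns, and 2 heavy chain rows are darkest at NP pool 1.

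Of 16 other genes of the class I pathway 11 were measured. In CDd14 against CDd7, 0 rose and 2 fell, a share below the 24% of all probe sets that passed. CALR, the chaperone calreticulin, read 7.85, 8.70 and 8.08 in CDd14 and 9.41, 9.31 and 8.91 in CDd7, and fell 2.0-fold (limma adjusted p = 0.0172). CANX, the chaperone calnexin, fell 1.56-fold in the same comparison (limma adjusted p = 0.00981). CALR also rose 2.09-fold in CDd7 against NPd7 (limma adjusted p = 0.0452), and it was the 1 of the 11 that passed there (3.74% of all probe sets). PDIA3, a further protein of the loading complex, did not pass in CDd14 minus CDd7 (log2 difference -0.37, limma adjusted p = 0.0729) or in CDd7 minus NPd7 (0.55, adjusted p = 0.0532). No gene of the list passed in CDd14 against NPd14 or NPd14 against NPd7. TAP2, the partner of TAP1, had a log2 difference of 0.10 ± 0.12 in CDd14 minus CDd7 (SE, limma adjusted p = 0.573), and the proteasome genes PSMB8, PSMB9 and PSMB10 had log2 differences of -0.02, -0.01 and 0.46 there. The median of the 11 was 0.0976 in CDd14 minus CDd7 and -0.151 in CDd7 minus NPd7.

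Of 19 other genes of the class II pathway 12 were measured, and in CDd14 against CDd7 3 rose and 0 fell, a share close to the 24% of all probe sets that passed. These were CTSS, a cathepsin that trims the invariant chain (1.48-fold, limma adjusted p = 0.0190), LGMN, the endopeptidase legumain (2.68-fold, adjusted p = 0.0403), and IFI30, a thiol reductase that unfolds antigens (1.90-fold, adjusted p = 0.0184). IFI30 read 10.38, 10.73 and 10.33 in CDd14, against 9.44, 9.31 and 9.93 in CDd7. The cathepsins CTSB and CTSL did not pass in CDd14 minus CDd7, with log2 differences of 0.47 and -0.62 (limma adjusted p = 0.214 and 0.216). No gene of the list passed in the other 3 comparisons, and the median of the 12 was 0.266 in CDd14 minus CDd7 and 0.411 in NPd14 minus NPd7. The class II gene BOLA-DOA, the alpha chain of the molecule that restrains DM, reached at most 3.852 and was not kept.

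Interferon gamma signalling was covered by 6 of 12 listed genes. In CDd14 against CDd7, 2 rose and 0 fell: IFNGR2, a receptor subunit (1.84-fold, limma adjusted p = 0.00717), and IRF9, a factor of the interferon response (1.90-fold, limma adjusted p = 0.0117). With 24% of all probe sets past the threshold there, 2 of 6 is not read as a result about the list. The median of the 6 was 0.637 there, and none passed in the other 3 comparisons. IFNG itself reached at most 2.876 and was not kept.

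**Figure D4:**
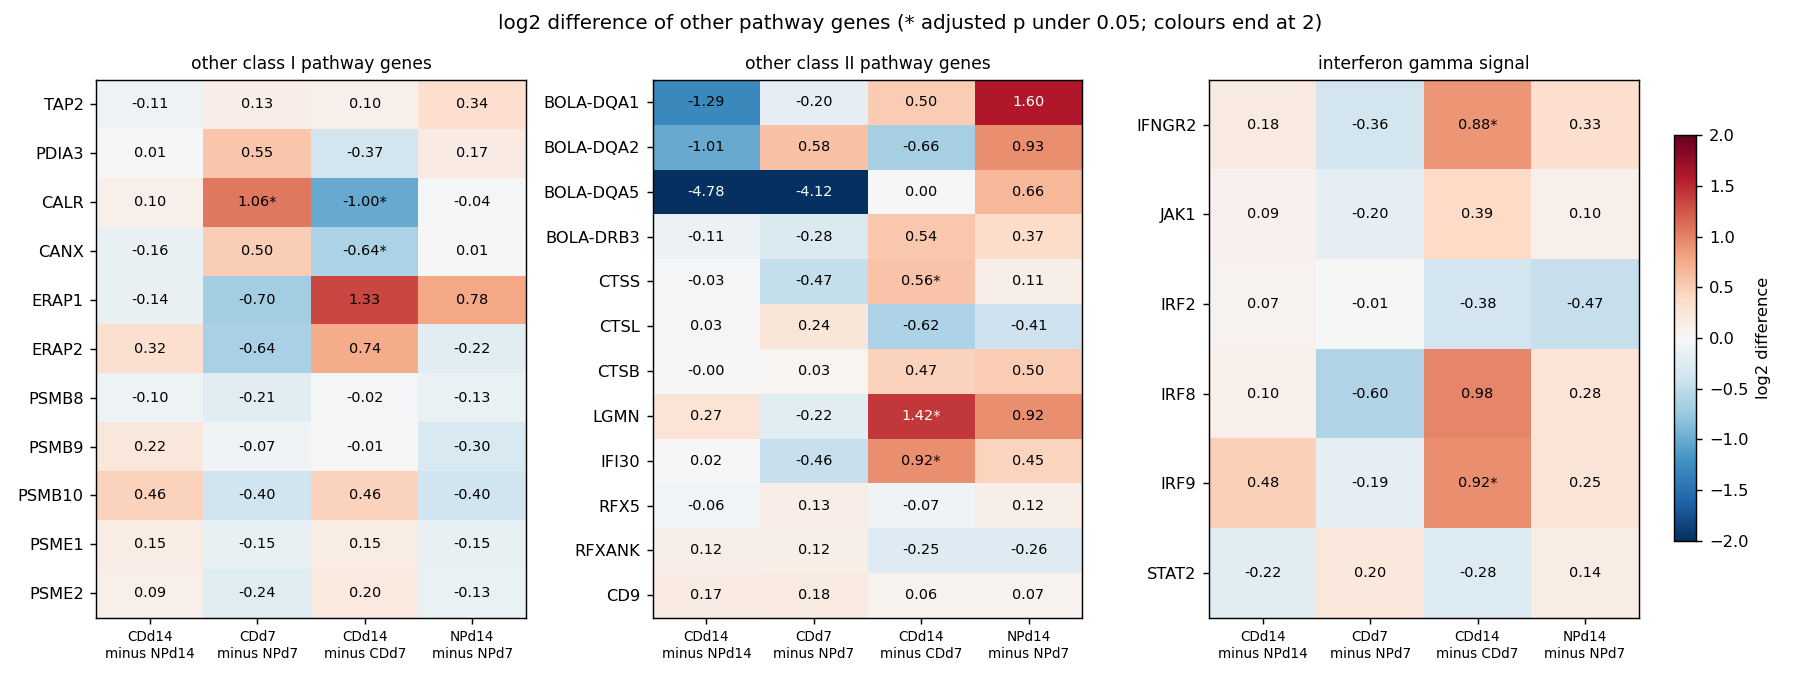
Log2 difference (number and colour) of each measured gene of 3 lists, in rows, in the 4 comparisons, in columns, with a star at an adjusted p under 0.05. Of the 8 stars 7 are in CDd14 minus CDd7, where CALR and CANX are negative and CTSS, LGMN, IFI30, IFNGR2 and IRF9 are positive.

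Levels of leukocyte markers are given beside the class II members. The mean of 6 markers found on all leukocytes was 8.385, 8.751 and 8.681 in CDd14, and 9.298, 8.144 and 8.532 in NPd14. It was 7.442, 7.292 and 8.122 in CDd7, and 8.248, 7.929 and 8.681 in NPd7. The mean was highest on NPd14 pool 1, where BOLA-DMB was highest (10.59). Its 2 lowest values were on CDd7 pools 1 and 2, where BOLA-DMB was lowest (8.10 and 8.39). Not all arrays matched in this way. CDd14 pool 3 and NPd7 pool 3 had the same mean of 8.681, with BOLA-DMB at 9.76 and 9.09. Single markers differed, and 4 of the 6 were highest elsewhere: PTPRC on NPd14 pool 3, LAPTM5 and CORO1A on NPd7 pool 3, and CD48 on CDd14 pool 1. One of the 6 passed in CDd14 against CDd7, a share below the 24% of all probe sets that passed there. This was CD53, which rose 2.62-fold (limma adjusted p = 0.0115), and 0 of the 6 passed in the other comparisons. Of 18 macrophage and dendritic cell markers 7 were measured, with a mean of 6.242 to 6.905 in CDd14, 6.592 to 7.279 in NPd14, 5.92 to 6.493 in CDd7 and 6.176 to 6.715 in NPd7, and 0 of 7 passed. B cell markers were below the filter, 0 of 7 measured, and MS4A1 and CD79A reached at most 2.911 and 1.959.

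Markers of other cell types are given as well. Of 9 measured T and natural killer cell markers, CD8A and LCK fell in CDd7 against NPd7, where 3.74% of all probe sets passed. CD8B passed the filter only through NP arrays, so no test is given for it. LCK was the 1 of the 9 that rose in CDd14 against CDd7, a share below the 24% of all probe sets that passed there. The mean of the 9 was 6.17 to 7.524 in CDd7 and 7.439 to 8.775 in NPd7. Of 9 measured stromal fibroblast markers 7 fell in CDd7 against NPd7 (3.74% of all probe sets passed). The mean of the 9 was 5.604 to 6.932 in CDd7 and 8.672 to 9.997 in NPd7. In CDd14 against CDd7, PDGFRA was the 1 of the 9 that rose (3.04-fold), and CDH1 was the 1 of 8 epithelial markers that rose (1.35-fold). Both shares are below the 24% of all probe sets that passed there. CLDN5, the only measured one of 7 endothelial markers, read 7.21, 5.78 and 6.17 in CDd7. It read 3.21, 4.75 and 4.08 in NPd7, and 2.05, 2.03 and 1.66 in CDd14. CLDN5 passed the filter only through day 7 arrays, so no test is given for it. The other endothelial markers reached at most 3.587 (EMCN) and were not kept. GYPC, the only measured one of 5 red blood cell markers, fell 1.97-fold in CDd7 against NPd7. HBB, HBA and ALAS2 of that list reached at most 2.717, 2.322 and 2.302 and were not kept. The part of these cell types in the members' differences was not tested.

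**Figure D5:**
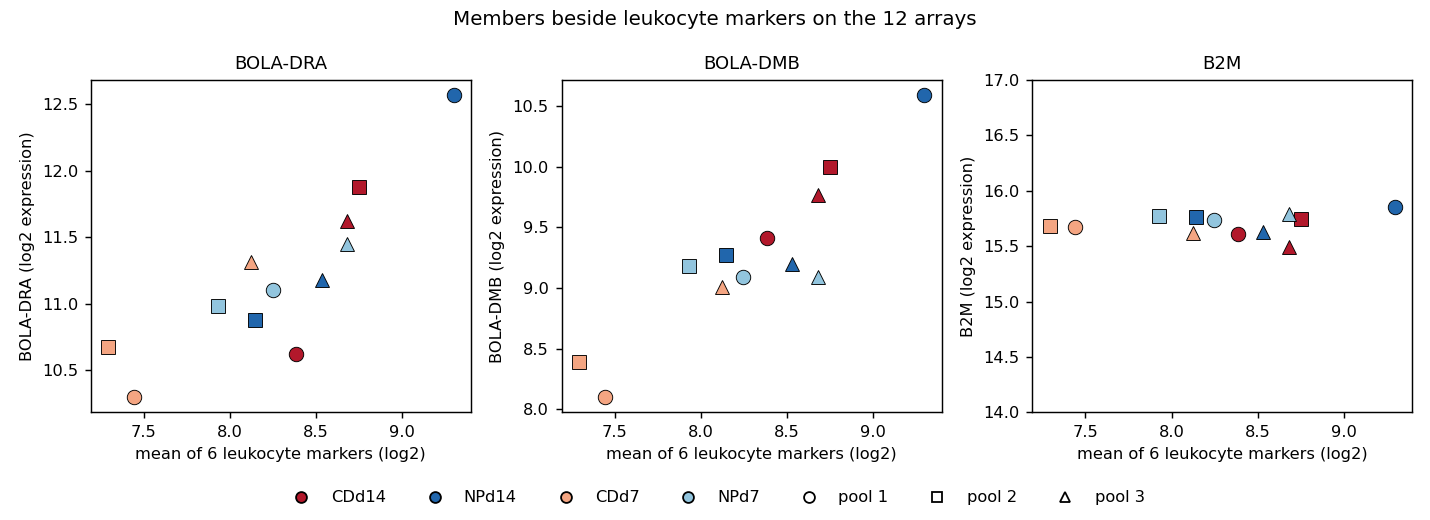
Log2 expression of BOLA-DRA, BOLA-DMB and B2M (vertical axes) against the mean log2 level of 6 leukocyte markers (horizontal axis) on the 12 arrays, with groups as colours and pools as symbols. NPd14 pool 1 is at the top right for BOLA-DRA (12.57) and BOLA-DMB (10.59), whereas B2M stays between 15.49 and 15.85.

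The genes most like the class II members over the 12 arrays, outside all lists, were S100A9, GMFG, IFIT2, RPL35A and TMEM156, with Pearson correlations of 0.94, 0.896, 0.894, 0.892 and 0.884. The class II profile is the mean of the 4 members, each centred on its own mean, and BOLA-DQB weighs most in it. Without BOLA-DQB, a choice made after seeing the data, the most alike were PLEK, LAS1L, CCL3, NRROS and CXCL10, at 0.923, 0.912, 0.91, 0.91 and 0.903. For the class I profile they were SLC35D2, HSPA9, CLTC, TBRG1 and SHTN1, at 0.912, 0.89, 0.883, 0.875 and 0.862. These are the highest correlations among all measured genes outside the lists, and they carry no test.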

How the data were processed

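Total RNA of 12 pools was hybridised to Affymetrix bovine arrays. The deposited table holds log2 values made by the authors with GCRMA, per the submitters' processing notes, which also name limma. No versions are given in the sources used here. Of 24128 probe sets, 112 controls were left out and 13449 with a log2 value above 4 on at least 3 of 12 arrays were kept. Precision is limited by 3 pools a group. One model of 4 group means was fitted to all 12 arrays with limma 3.58.1 in R 4.3.3 (lmFit, eBayes), with Benjamini-Hochberg adjustment over the 13449 and two-sided tests at an adjusted p of 0.05. The procedure was tested on simulated data. A gene is represented by its brightest kept probe set. From the other lists, up to 4 genes past the threshold with the smallest p were named per comparison. The 5 genes most like each class profile were named by Pearson correlation. Members and lists were chosen with earlier results of these data known.

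Pool numbers were checked as pairs by correlating deviations from group means. Between NPd14 and NPd7 the same-numbered pools correlated at 0.161, 0.619 and 0.507, and each NPd14 pool matched best with the NPd7 pool of its number. Same-numbered pools of different outcomes, which hold different heifers, reached 0.363 (pool 2 of CDd7 and NPd7) and 0.326 (pool 2 of NPd14 and CDd7). Whether the NP pools are pairs is thus not settled, and the labels do not give it. Between CDd14 and CDd7 the values were 0.242, -0.0705 and 0.23, and these were not taken as pairs. Alternatives were other filters, quantile normalization, trended and robust eBayes, blocks, 2 groups alone and leaving out each array. Gene names came from the array annotation and were matched to RefSeq (ARS-UCD2.0) by identifier.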

Additional observations from a re-analysis of the deposited data

How the results depend on the processing

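With 3 pools a group, small differences could not be resolved, and pools may hide differences between heifers. Of 620 recomputed member differences, 586 kept their direction and side of the threshold, 5 gained a call, 7 lost it and 22 changed sign, none of these with a call. The count of member probe sets past the threshold in CDd14 against CDd7 was 2 with trended and robust eBayes and 2 with a replicate block within outcome, and 0 to 1 when single arrays were left out (0 without CDd14 pool 2 or 3, CDd7 pool 1 or 2, or NPd7 pool 1). The single contrast of day 14 minus day 7 averaged over outcomes gave 2 (BOLA-DMB and TAPBP), against 1 in CD and 0 in NP. The count was 1 in CDd7 against NPd7 with the replicate block (TAP1). That block ties CD and NP pools of the same number, which hold different heifers, so this count supports nothing. The averages and the block within outcome were chosen after seeing the data. With the replicate block BOLA-DMB had a limma adjusted p of 0.0516 in CDd14 against CDd7, and without a filter 0.0743, where TAPBP had 0.0471. In NPd14 against NPd7 the block within outcome left 0 of 10 members past the threshold and changed the count over all probe sets to 0, against 44 without it. Quantile normalization turned TAPBP and BOLA-DMA in CDd14 minus NPd14 to -0.0075 and 0.012, and B2M in NPd14 minus NPd7 to 0.020. Leaving out single arrays turned signs in CDd14 minus NPd14 for BOLA-DRA (-0.50 to 0.34), BOLA-DMA (-0.25 to 0.22), TAPBP (-0.027 to 0.11), BOLA (-0.49 to 0.13), BOLA-DMB (-0.21 to 0.49) and TAP1 (-0.30 to 0.020). It did so in CDd14 minus CDd7 for BOLA (-0.27 to 0.35) and B2M (-0.11 to 0.019), in CDd7 minus NPd7 for BOLA-DMA (-0.050 to 0.0055), and in NPd14 minus NPd7 for BOLA-DRA (-0.15 to 0.70), BOLA-DQB (-0.49 to 3.75), B2M (-0.074 to 0.039) and BOLA (-0.017 to 0.19). BOLA-DMA had no value under the filter at 6. The causes were not tested.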
